A study of Mus musculus with 20 samples.

Results

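The Reg genes encode small secreted C-type lectins of the gut epithelium, and 4 of them, Reg3a, Reg3b, Reg3g and Reg4, were examined in mouse small intestinal crypts. They were taken by gene symbol, and all 4 were among the 23020 genes of the expression table and among the 9521 that passed a filter on low values. The 20 libraries came from C57BL/6 mice in 4 groups. Co-housed Xiap-/- mice and co-housed wild-type (WT) mice (5 libraries each) had shared cages for 4 weeks, while 4 Xiap-/- and 6 WT libraries came from mice kept with their own genotype, called housed apart below. Xiap encodes an inhibitor of cell death proteins that also takes part in signalling by the bacterial sensor NOD2. The labels give no age, cage, segment of the intestine or deleted part of Xiap, and they do not say whether each library is 1 mouse, so the p-values measure the spread between libraries.

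Reg3b and Reg3g are bactericidal lectins that epithelial cells, Paneth cells among them, secrete into the gut lumen. Colonization by microbes raises their transcripts, through the Toll-like receptor adaptor MyD88 and through interleukin-22, whose receptor activates the transcription factor STAT3. Reg3g helps to keep bacteria away from the epithelial surface. Reg3a is a related lectin of gut and pancreas, and Reg4 is a more distant member of the family, found in enteroendocrine and other secretory cells.

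On chromosome 6 there are 6 genes of the family side by side, in the order Reg3b, Reg3d, Reg3a, Reg2, Reg1 and Reg3g, between 78370657 and 78468872 (98.2 kb, GENCODE M21 on GRCm38). Reg3b (78370657 to 78373466) and Reg3a (78380709 to 78383827) are on the plus strand, and Reg3g (78466269 to 78468872) is on the minus strand. Reg4 lies apart from them, on chromosome 3 (98222156 to 98236748, plus strand). Windows from 250 bases before to 50 bases after each RefSeq start (GRCm38.p6) are shown because Reg3b and Reg3g moved together in these libraries and Reg3a and Reg4 did not move with them. Capitals mark matches, on either strand, to the STAT pattern TTCNNNGAA and to TATAAA. The Reg3b window begins just before the GENCODE start given above, so its RefSeq start and its marked letters lie inside the GENCODE gene.
Reg3b promoter window, chr6:78370635-78370934, plus strand: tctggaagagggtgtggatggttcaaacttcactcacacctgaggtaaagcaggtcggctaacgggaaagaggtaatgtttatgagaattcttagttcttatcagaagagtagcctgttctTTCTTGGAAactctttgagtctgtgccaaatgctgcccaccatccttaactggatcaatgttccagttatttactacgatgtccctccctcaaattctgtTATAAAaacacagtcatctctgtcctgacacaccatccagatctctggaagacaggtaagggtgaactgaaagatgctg
Reg3g promoter window, chr6:78468825-78469124, minus strand: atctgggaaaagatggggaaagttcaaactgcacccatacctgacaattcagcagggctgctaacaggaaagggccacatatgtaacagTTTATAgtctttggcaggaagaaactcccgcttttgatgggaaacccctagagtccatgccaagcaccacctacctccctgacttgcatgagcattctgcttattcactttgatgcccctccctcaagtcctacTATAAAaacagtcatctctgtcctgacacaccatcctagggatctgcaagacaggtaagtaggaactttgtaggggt
Reg3a promoter window, chr6:78380459-78380758, plus strand: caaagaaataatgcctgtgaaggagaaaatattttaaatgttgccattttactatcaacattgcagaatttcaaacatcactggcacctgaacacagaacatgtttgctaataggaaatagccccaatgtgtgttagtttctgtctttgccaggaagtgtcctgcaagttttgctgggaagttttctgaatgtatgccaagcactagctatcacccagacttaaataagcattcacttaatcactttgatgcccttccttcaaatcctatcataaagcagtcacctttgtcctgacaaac
Reg4 promoter window, chr3:98221906-98222205, plus strand: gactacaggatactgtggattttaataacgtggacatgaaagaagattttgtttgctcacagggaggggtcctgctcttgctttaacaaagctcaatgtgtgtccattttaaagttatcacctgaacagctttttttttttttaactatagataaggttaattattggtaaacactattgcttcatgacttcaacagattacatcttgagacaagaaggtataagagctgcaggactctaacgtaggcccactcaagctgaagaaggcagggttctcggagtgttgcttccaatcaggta

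The windows of Reg3b and Reg3g were the most alike among the 4, with 68.6% identity in a global alignment, against 52.4% for Reg3a and Reg3g, 47.5% for Reg3a and Reg3b and 45.7% to 47.3% for Reg4 and each of the other members. These values depend on where each start is annotated, since fixed windows were aligned from end to end. The letters tgtcctgac lie just before the start in Reg3b and Reg3g but near the end of the Reg3a window. The identities may therefore understate how alike the Reg3a sequence is to those of Reg3b and Reg3g. The longest run shared by Reg3b and Reg3g, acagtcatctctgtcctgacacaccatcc, was 29 bases long and spanned the start site in both, from base -20 to base 9. TATAAA stood just before it, with its first base at -29 in Reg3b and at -27 in Reg3g, and a reverse match lay at -161 in Reg3g. Among the 4 windows, the letters of the STAT pattern were found once, in Reg3b, as TTCTTGGAA with its first base at -129. Other genes of the chromosome 6 group held such letters too. TATAAA lay at -30 in Reg1 and Reg2, with a reverse match at 36 in Reg1, and the STAT letters lay at -238 in Reg3d. Of 32851 promoter windows of this length in the RefSeq table, 8.30% held the STAT pattern and 13.6% held TATAAA on either strand. A match of letters is not a binding site, and a window without one shows only that these letters are not in it.

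The transcripts themselves can be told apart by reads of 75 cycles. The longest run shared by any pair among the 4 members was 35 bases, in Reg3b and Reg3g, and it was 17 bases within the last 300 bases of their transcripts, the part that sequencing of 3' ends reads. Whole transcripts of Reg3b and Reg3g had 67.7% identity.

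The Xiap transcript was still present in Xiap-/- libraries. It lay at 6.29 to 6.91 in co-housed Xiap-/- mice and 6.36 to 6.84 in co-housed WT mice, and at 6.25 to 6.48 in Xiap-/- and 6.56 to 7.08 in WT mice housed apart (log2 levels). Since 3' sequencing may read a stretch that the deletion left in place, this transcript does not check the genotype labels. Among WT libraries housed apart, replicates 5 and 6 stood with the Xiap-/- libraries housed apart in Reg3b, Reg3g and Reg4. For results that rest on them, values without both are given, an alternative chosen after the values were seen. The share of very rare genes seen above their plateau, a proxy for depth, was 17.1% ± 10.5 (SD, n = 4) in Xiap-/- and 7.71% ± 3.69 (n = 6) in WT mice housed apart, and 8.77% ± 2.77 in Xiap-/- and 8.74% ± 1.47 in WT co-housed mice (n = 5 each).

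Between the genotypes, the 4 lectins did not move as a family. In the average over both housings, Xiap-/- crypts had less Reg3b and Reg3g transcript and more Reg3a and Reg4 transcript, and each of the 4 passed the test across all genes. Reg3g differed by -1.02 ± 0.22 (SE, log2 scale as for every level and difference here), or 0.494 times the WT level on the linear scale (limma adjusted p = 0.0297). Reg3b differed by -0.96 ± 0.19, or 0.514 times (adjusted p = 0.0195). Reg3a was higher by 0.60 ± 0.15, or 1.52-fold (adjusted p = 0.0477), and Reg4 by 0.46 ± 0.10, or 1.37-fold (adjusted p = 0.0194). Of all 9521 genes tested, 2.06% passed in this comparison (196 genes), 1.11% as higher and 0.945% as lower. Among all tested genes, only the acute phase protein gene Saa1, which did not pass, had a larger difference in size than Reg3g (-1.45).

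These sizes are means of 2 unequal parts, the genotype difference in mice housed apart and that in co-housed mice, which share no library and are given one by one below. In bulk crypt RNA, fewer cells of a type and less transcript per cell cannot be told apart. The calls of Reg3b and Reg4 held whichever of the 20 libraries was left out. That of Reg3g was lost without co-housed WT replicate 2 or 3, Xiap-/- housed apart replicate 2 or 4 or co-housed Xiap-/- replicate 1 or 5 (highest adjusted p = 0.0676), and that of Reg3a held only without co-housed Xiap-/- replicate 2 or WT housed apart replicate 5. With the depth proxy as a covariate none of the 4 passed, at -0.88 for Reg3g, -0.89 for Reg3b, 0.48 for Reg3a and 0.36 for Reg4.

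**Figure D1:**
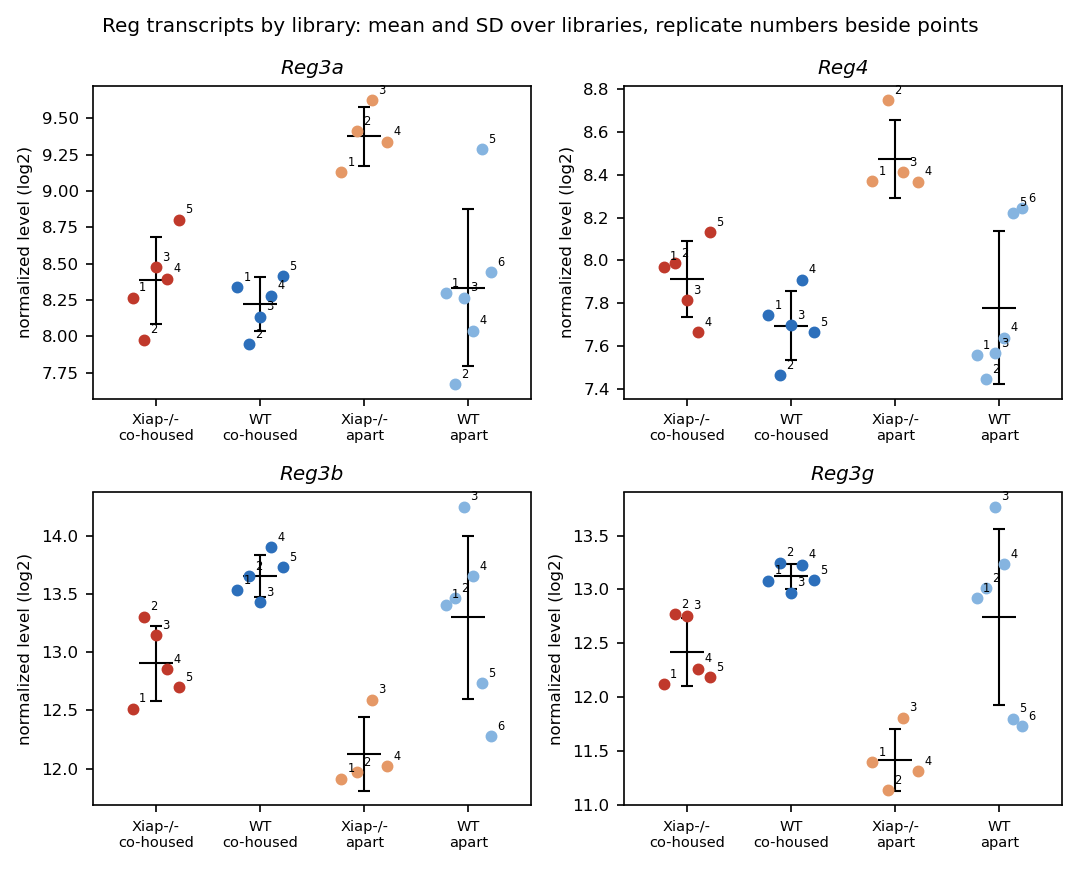
Normalized log2 level of Reg3a, Reg4, Reg3b and Reg3g in each library, with replicate numbers beside the points and the mean and SD of each group in black. The Xiap-/- libraries housed apart are highest for Reg3a and Reg4 and lowest for Reg3b and Reg3g as a group, and WT replicates 5 and 6 housed apart lie near them for Reg3b (12.73 and 12.28), Reg3g (11.80 and 11.73) and Reg4 (8.22 and 8.25).

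In mice housed apart, the bactericidal lectin Reg3g had levels of 11.40, 11.13, 11.81 and 11.31 in the 4 Xiap-/- libraries, against a lowest of 11.73, a median of 12.96 and a highest of 13.77 in the 6 WT libraries. WT replicates 5 and 6 reached down to the Xiap-/- range, so the groups overlapped. The means were 11.41 ± 0.29 in Xiap-/- and 12.74 ± 0.81 in WT mice (SD), a difference of -1.33 ± 0.31 that did not pass (limma adjusted p = 0.0655).

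Reg3b had levels of 11.91, 11.97, 12.59 and 12.02 in Xiap-/- libraries, against a lowest of 12.28, a median of 13.44 and a highest of 14.25 in WT libraries. Xiap-/- replicate 3 lay above WT replicate 6 alone. The difference of -1.17 ± 0.27 did not pass either (limma adjusted p = 0.0599). Without WT replicate 5 the adjusted p was 0.0115 for Reg3b and 0.00537 for Reg3g, and without WT replicate 6 it was 0.00258 and 0.00901. Without both, the differences were -1.57 for Reg3b and -1.82 for Reg3g. The gain was not particular to these genes. Of all 9521 tested genes, 697 passed without WT replicate 5, 67 without replicate 6 and 694 without both, against 43 with all libraries. An exact permutation test over all 10 libraries, 1 gene at a time, gave p = 0.0143 for Reg3b and 0.0190 for Reg3g (0.0286 and 0.0254 adjusted over the 4 comparisons of each gene). It was run on the members alone and not adjusted over all genes. By limma, 1506 of all 9521 tested genes had an unadjusted p under 0.05 in mice housed apart.

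Reg3a, the member of the chromosome 6 group that went the other way, had levels of 9.13, 9.41, 9.62 and 9.34 in Xiap-/- libraries, against a lowest of 7.67, a median of 8.28 and a highest of 9.29 in WT libraries. The highest WT library, replicate 5, lay within the Xiap-/- range, and the next highest, replicate 6, was at 8.44. Reg3a rose by 1.04 ± 0.22, with a 95% confidence interval of 0.58 to 1.50 (limma adjusted p = 0.0440, exact permutation p = 0.0238).

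Reg4 had levels of 8.37, 8.75, 8.41 and 8.37 in Xiap-/- libraries, against a lowest of 7.45, a median of 7.60 and a highest of 8.25 in WT libraries. The groups did not overlap, which held in this direction for 0.819% and in either for 1.87% of tested genes in this comparison. Reg4 rose by 0.69 ± 0.14 (limma adjusted p = 0.0192, exact permutation p = 0.00952).

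Both Reg3a and Reg4 thus passed where 0.452% of tested genes did (43 of 9521), 0.294% of all tested genes as higher. With the 2 groups housed apart fitted alone, 0.126% of genes passed and neither of these did (limma adjusted p = 0.110 for Reg3a and 0.0983 for Reg4). The call of Reg3a held in 7 of 20 fits that left out 1 library, those without Xiap-/- replicate 1 or WT replicate 5 or 6 housed apart and those without replicate 2 or 5 of either co-housed group, and was lost in the others (highest adjusted p = 0.146). That of Reg4 was lost without Xiap-/- replicate 2 or 3 or WT replicate 1, 2 or 4 housed apart (highest adjusted p = 0.0986). With the depth proxy as a covariate, the differences were 0.79 for Reg3a and 0.51 for Reg4 and neither passed (limma adjusted p = 0.796 and 0.769).

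In co-housed mice, Reg3b and Reg3g were again lower in Xiap-/- crypts, in every library, while Reg3a and Reg4 overlapped. Reg3g had levels of 12.12, 12.77, 12.76, 12.26 and 12.19 in Xiap-/- libraries, against 13.08, 13.25, 12.97, 13.23 and 13.09 in WT libraries. Reg3b had levels of 12.52, 13.31, 13.15, 12.86 and 12.70 in Xiap-/- libraries, against 13.54, 13.66, 13.43, 13.91 and 13.73 in WT libraries. Each Xiap-/- value lay below each WT value for both genes, as it did, in that direction, for 1.75% of tested genes.

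The differences were -0.70 ± 0.31 for Reg3g (limma adjusted p = 0.372) and -0.75 ± 0.27 for Reg3b (adjusted p = 0.280), and neither passed in the model of all 4 groups, where 0.0315% of genes did. That model uses 1 estimate of the spread for all groups, and the SD of Reg3g was 0.32 and 0.12 in co-housed Xiap-/- and WT mice but 0.81 in WT mice housed apart. When the co-housed groups were fitted alone, both passed (limma adjusted p = 0.00590 for Reg3g and 0.0126 for Reg3b), as did 1.49% of all genes. An exact permutation test over the libraries gave p = 0.00794 for each, the smallest that 252 splits allow (adjusted p = 0.0159 for Reg3g and 0.0286 for Reg3b over the 4 comparisons of each gene).

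Reg3a had levels of 8.27, 7.98, 8.48, 8.40 and 8.80 in co-housed Xiap-/- libraries, against 8.34, 7.95, 8.14, 8.28 and 8.41 in co-housed WT libraries. The ranges overlapped almost wholly, and the difference was 0.16 with a 95% confidence interval of -0.29 to 0.61 (limma adjusted p = 0.799). Reg4 had levels of 7.97, 7.99, 7.81, 7.67 and 8.13 in Xiap-/- libraries, against 7.74, 7.46, 7.70, 7.91 and 7.66 in WT libraries. Its difference was 0.22, with an interval of -0.057 to 0.49 (limma adjusted p = 0.526). Neither interval reached the size found in mice housed apart, 1.04 for Reg3a and 0.69 for Reg4, and the test of that contrast is given with the interaction.

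In Xiap-/- crypts, the levels of all 4 lectins were nearer to the WT levels in co-housed mice than in those housed apart, but no difference passed in the model of all groups. Reg3a averaged 8.38 ± 0.30 (SD, n = 5) in co-housed and 9.38 ± 0.20 (n = 4) in Xiap-/- mice housed apart, a difference of -0.99 ± 0.23 (SE, limma adjusted p = 0.101). Reg4 averaged 7.91 ± 0.18 in co-housed and 8.47 ± 0.18 in Xiap-/- mice housed apart (-0.56 ± 0.14, adjusted p = 0.107). Reg3g averaged 12.42 ± 0.32 in co-housed and 11.41 ± 0.29 in Xiap-/- mice housed apart (1.01 ± 0.33, adjusted p = 0.267), and Reg3b 12.91 ± 0.32 in co-housed and 12.12 ± 0.32 in those housed apart (0.78 ± 0.28, adjusted p = 0.321).

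The libraries of the 2 Xiap-/- groups did not overlap for Reg3a, Reg3g and Reg4, as was the case for 5.63% of tested genes (2.98% with all co-housed libraries lower and 2.65% with all higher). For Reg3b co-housed replicate 1, at 12.52, lay below replicate 3 housed apart, at 12.59. In the model of all groups 0.147% of genes passed. With the Xiap-/- groups fitted alone all 4 passed (limma adjusted p = 0.00128 for Reg3a, 0.00310 for Reg3g, 0.00433 for Reg4 and 0.0181 for Reg3b), as did 1.78% of all genes. Exact permutation tests over 126 splits gave p = 0.00794 for Reg3a, Reg3g and Reg4, the smallest possible, and 0.0238 for Reg3b (adjusted over 4 comparisons per gene, 0.0317, 0.0159, 0.0190 and 0.0317 for Reg3a, Reg3g, Reg4 and Reg3b). In the model of all groups, Reg3a passed once WT housed apart replicate 2 or 5 was left out (limma adjusted p = 0.0360 and 0.00160), and Reg4 once replicate 5 was (0.0279). Of all tested genes, 23 passed without replicate 2 and 64 without replicate 5, against 14 with all libraries.

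In WT crypts, co-housed libraries lay inside the range of those housed apart for all 4 lectins. The means were 13.12 ± 0.12 in co-housed (n = 5) and 12.74 ± 0.81 in WT mice housed apart (n = 6) for Reg3g, and 13.65 ± 0.18 in co-housed and 13.30 ± 0.70 in those housed apart for Reg3b. For Reg3a they were 8.22 ± 0.18 in co-housed and 8.33 ± 0.54 in WT mice housed apart, and for Reg4 7.70 ± 0.16 in co-housed and 7.78 ± 0.36 in those housed apart. The differences of 0.38 ± 0.29 for Reg3g, 0.35 ± 0.26 for Reg3b, -0.11 ± 0.21 for Reg3a and -0.083 ± 0.13 for Reg4 did not pass (smallest limma adjusted p = 0.649). No gene passed here by limma (0 of 9521), while 969 had an unadjusted p under 0.05. With array weights 5 of 9521 genes passed, and with no filter on low values 5 of 23020. Without WT housed apart replicate 4, 66 of 9521 passed. Without WT housed apart replicates 5 and 6 all 4 differences changed sign, to -0.11 for Reg3g, -0.042 for Reg3b, 0.15 for Reg3a and 0.14 for Reg4.

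What did differ between the WT groups was the spread. The range over libraries was 0.28 in co-housed and 2.04 in WT mice housed apart for Reg3g, and 0.47 in co-housed and 1.97 in those housed apart for Reg3b. It was 0.47 in co-housed and 1.62 in WT mice housed apart for Reg3a, and 0.45 in co-housed and 0.80 in those housed apart for Reg4. The spread was not tested, and 2 libraries, replicates 5 and 6, set the low end of Reg3b and Reg3g and the high end of Reg3a and Reg4 in WT mice housed apart.

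Averaged over the genotypes, the housing differences were 0.69 ± 0.22 for Reg3g, 0.57 ± 0.19 for Reg3b, -0.55 ± 0.15 for Reg3a and -0.32 ± 0.10 for Reg4, and none passed (smallest limma adjusted p = 0.121), where 0.179% of genes did. Of the 4, Reg3a alone passed, at an adjusted p of 0.0371, when WT housed apart replicate 2 was left out. In that fit 73 of all tested genes passed, against 17 with all libraries. Nor did the difference between the genotype effects of the 2 housings pass for any of the 4, at -0.88 ± 0.31 for Reg3a, -0.48 ± 0.19 for Reg4, 0.63 ± 0.44 for Reg3g and 0.43 ± 0.38 for Reg3b (smallest limma adjusted p = 0.565, with 0.0105% of genes passing). A smaller genotype difference in co-housed mice was therefore not shown by this test. Without WT housed apart replicates 5 and 6, it passed for Reg3a, Reg4 and Reg3g (limma adjusted p = 0.0103, 0.0217 and 0.0232). In that fit 33 of all tested genes passed, against 1 with all libraries.

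**Figure D2:**
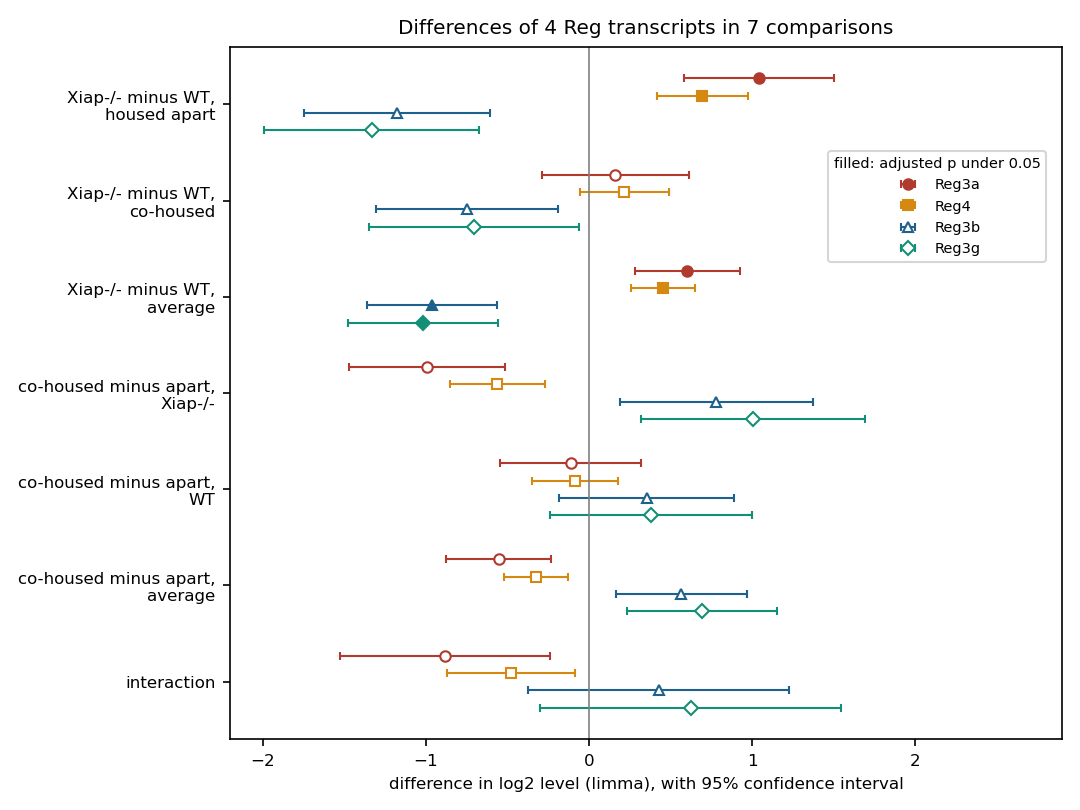
Differences in log2 level from limma for the 4 lectins in 7 comparisons, with 95% confidence intervals and filled symbols where the adjusted p was under 0.05. Reg3a and Reg4 lie on the opposite side of 0 from Reg3b and Reg3g in each comparison, and all 4 are filled in the genotype average.

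Within each library, the distance between Reg3a and Reg3g summed up the split of the family, on a measure that scaling of a library cannot change. It was built after the values were seen, from members already known to differ in opposite directions, so it is a description with no test. The log2 level of Reg3a minus that of Reg3g was -2.27, -1.72, -2.18 and -1.97 in Xiap-/- mice housed apart, against a lowest of -5.50, a median of -4.91 and a highest of -2.51 in WT mice housed apart. All 4 Xiap-/- values lay above all 6 WT values, by a mean of 2.37.

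In co-housed mice the distance was -3.85, -4.79, -4.28, -3.87 and -3.38 in Xiap-/- and -4.74, -5.30, -4.83, -4.95 and -4.67 in WT libraries. Xiap-/- replicate 2 lay among the WT values and the other 4 Xiap-/- libraries lay above them. The difference of the means was 0.87. Between co-housed Xiap-/- mice and those housed apart the difference was -2.0 with no overlap, and between the WT groups it was -0.49. The distance between Reg3b and Reg3g, by contrast, differed by -0.22 to 0.15 in the 4 comparisons.

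**Figure D3:**
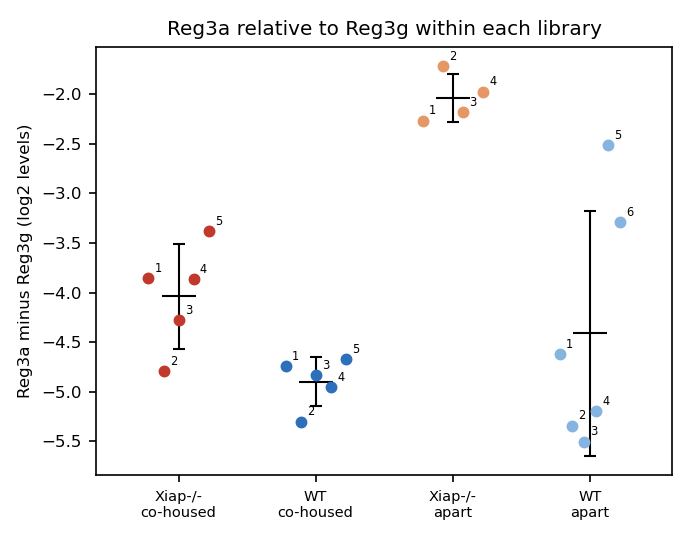
Log2 level of Reg3a minus that of Reg3g in each library, with replicate numbers, means and SD. The Xiap-/- libraries housed apart lie between -2.27 and -1.72, above all other libraries, and WT replicate 5 housed apart is nearest to them at -2.51.

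Inside the groups, Reg3b and Reg3g varied together, while r for the other pairs lay between -0.16 and 0.34 without WT housed apart replicates 5 and 6. When each library was taken as its deviation from its group mean, Reg3b and Reg3g had a Pearson's r of 0.96 and a Spearman's rho of 0.92 over 20 libraries (permutation p = 1e-05 for each, the smallest that 100000 permutations within groups can give, and 6e-05 adjusted over the 6 pairs of members). Without the 2 libraries farthest out, WT housed apart replicates 3 and 6, r was 0.92. Reg3a and Reg4 had an r of 0.63 and a rho of 0.54 (permutation p = 0.0153 and 0.0311, adjusted p = 0.0371 and 0.0621), and r was 0.37 without WT housed apart replicates 2 and 5, so that relation rested on them.

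Reg3g and Reg4 deviated in opposite directions, with an r of -0.73 and a rho of -0.58 (permutation p = 0.0186 and 0.0273, adjusted p = 0.0371 and 0.0621). Without WT housed apart replicates 3 and 6, the farthest in Reg3g, r was -0.64, but without replicates 5 and 6 it was -0.16. The corresponding r without replicates 5 and 6 was 0.94 for Reg3b and Reg3g. For the remaining pairs, r was -0.62 for Reg3b and Reg4, -0.52 for Reg3a and Reg3g and -0.35 for Reg3a and Reg3b, with rho of -0.48, -0.41 and -0.25, and none passed (permutation p = 0.0436, 0.129 and 0.337, adjusted p = 0.0654, 0.155 and 0.337 for r, and permutation p = 0.0670, 0.117 and 0.351, adjusted p = 0.101, 0.140 and 0.351 for rho).

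**Figure D4:**
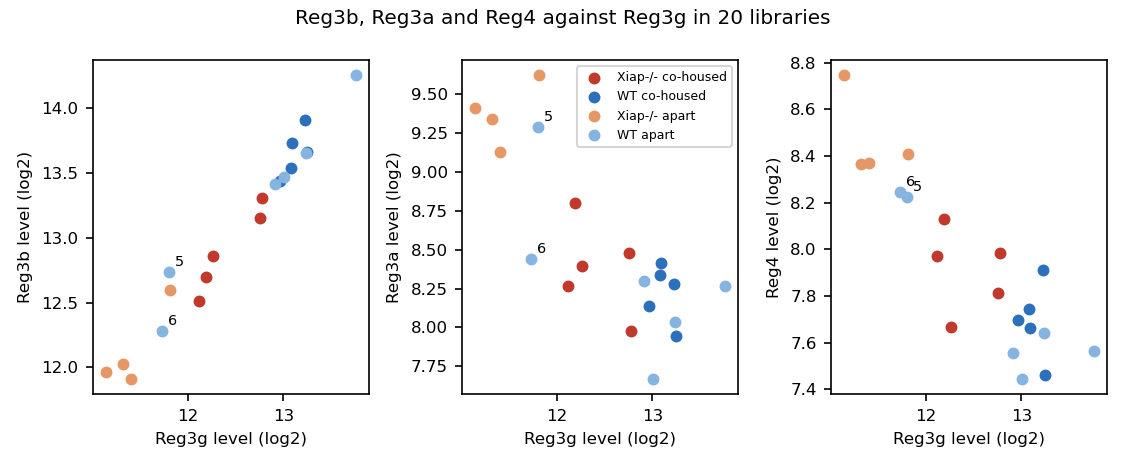
Log2 levels of Reg3b, Reg3a and Reg4 against that of Reg3g in 20 libraries, coloured by group, with WT replicates 5 and 6 housed apart numbered. Reg3b follows Reg3g along 1 line through all groups, and Reg4 and Reg3a are high where Reg3g is low.

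Among all tested genes, those most like each member over the 20 libraries were largely shared by Reg3b and Reg3g and were different for Reg3a and for Reg4. These are the 5 highest Pearson's r for each, given as a description with no test, since the libraries also share depth and group. For Reg3g they were Reg3b (r = 0.98, rho = 0.97), Duoxa2, the maturation factor of the peroxide-making oxidase DUOX2 (0.97, 0.94), the glutathione peroxidase Gpx2 (0.94, 0.90), the NAD hydrolase Cd38 (0.94, 0.90) and Rpn1, a subunit of the oligosaccharyltransferase (0.93, 0.90). For Reg3b they were Reg3g, Duoxa2 (r = 0.94, rho = 0.91), Gpx2 (0.91, 0.89), Rpn1 (0.90, 0.85) and the acute phase protein Saa1 (0.89, 0.87).

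For Reg3a the 5 were the carbonyl reductase Cbr1 (r = 0.95, rho = 0.91), the peroxisomal enzyme Hsd17b4 (0.94, 0.89), the sterol carrier Scp2 (0.94, 0.89), the retinol saturase Retsat (0.94, 0.83) and the glutathione transferase Gsta1 (0.93, 0.91). For Reg4 they were the pancreatic lipase-related Pnliprp2 (0.93, 0.90), the lipid droplet protein Hsd17b13 (0.92, 0.92), the ribonuclease Rnase1 (0.92, 0.88), the monoamine oxidase Maob (0.90, 0.84) and the colipase Clps (0.89, 0.84). Neither Reg3a nor Reg4 was among the 5 of the other, though their r over the same 20 libraries was 0.86.

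Of the other Reg genes in the table, Reg1, whose product is known from the pancreas, was well above the minimum mean and changed in no comparison. It lay at 11.86 ± 0.35 in Xiap-/- and 11.59 ± 0.44 in WT mice housed apart and at 11.61 ± 0.32 in co-housed Xiap-/- and 11.57 ± 0.19 in co-housed WT mice (differences 0.26 ± 0.20 and 0.041 ± 0.19, limma adjusted p = 0.542 and 0.954). Reg2, with a mean of -0.49, and Reg3d, with a mean of 1.32, were below the minimum and were not tested. Pancreatic acinar cells are another known source of Reg transcripts. Of 13 acinar markers, 9 were in the table and only the elastase Cela1 passed the minimum, while the trypsinogen Prss2, Ctrb1, Cpa1 and Pnlip lay at means below 0. The summed level of the acinar markers was 4.80 to 5.06 in co-housed Xiap-/-, 4.74 to 5.04 in co-housed WT, 5.06 to 5.55 in Xiap-/- housed apart and 4.77 to 5.10 in WT housed apart, and its part in the Reg results was not tested.

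Interleukin-22 and STAT3 signalling is known to raise Reg3b and Reg3g, and 3 transcripts listed for it were lower in Xiap-/- crypts. Activity of the pathway was not measured, and its part in the Reg differences was not tested. Of 18 genes listed for interleukin-22 and STAT3 signalling, 11 were tested, and in the genotype average 3 fell (0.945% of all tested genes did), 8 did not pass and none rose, with a median of -0.11 against -0.0016 over all tested genes. Stat3 itself had a difference of -0.29 ± 0.07 (limma adjusted p = 0.0234), its feedback inhibitor Socs3 one of -0.41 ± 0.09 (0.0195) and the cytokine-induced kinase Pim1 one of -0.60 ± 0.08 (6.24e-05). Socs3 and Pim1 passed whichever library was left out, and Stat3 did not without co-housed WT replicate 3, Xiap-/- housed apart replicate 2 or co-housed Xiap-/- replicate 5. In this average, Pim1 still passed with the depth proxy as a covariate, unlike Stat3 and Socs3 (adjusted p = 0.178 and 0.0967). The receptor genes Il10rb and Il6st had differences of 0.12 ± 0.07 and -0.15 ± 0.06, and Il22ra1, with a mean of 2.76, was below the minimum.

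In mice housed apart only Pim1 of this list fell, by 0.74 on the log2 scale (limma adjusted p = 0.000686), to 5.28 ± 0.20 in Xiap-/- against 6.03 ± 0.23 in WT libraries, where 0.158% of all tested genes fell. With the depth proxy as a covariate it was at -0.65 and did not pass (adjusted p = 0.101). Stat3 lay at 7.25 ± 0.11 in Xiap-/- and 7.61 ± 0.15 in WT libraries (difference -0.35 ± 0.10, adjusted p = 0.0757), and Socs3 at 3.93 ± 0.12 in Xiap-/- and 4.42 ± 0.14 in WT libraries (-0.49 ± 0.13, adjusted p = 0.0655). In co-housed mice Stat3 lay at 7.43 ± 0.10 in Xiap-/- and 7.67 ± 0.18 in WT libraries and Socs3 at 4.20 ± 0.30 in Xiap-/- and 4.53 ± 0.29 in WT libraries, with no member passing. By housing, none of the 11 passed in either genotype.

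Of 19 genes for Toll-like receptor, NOD and NF-kB signalling, 12 were tested, and 2 fell in the genotype average, where 0.945% of all tested genes did (median -0.058). These were the NF-kB inhibitor Nfkbia (-0.33 ± 0.09, limma adjusted p = 0.0365) and its relative Nfkbiz (-0.29 ± 0.07, adjusted p = 0.0317), which passed in 9 and 11 of the 20 fits without 1 library. Neither passed once the depth proxy was a covariate (adjusted p = 0.163 for Nfkbia and 0.167 for Nfkbiz). The adaptor Myd88 differed by -0.023 ± 0.06. Nod2 and its partner Ripk2, which XIAP binds, were below the minimum.

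Among 14 other microbe-responsive epithelial genes, 9 were tested, and 3 fell in the genotype average, against 0.945% of all tested genes (median -0.34). Duoxa2 had a difference of -0.92 ± 0.20 (limma adjusted p = 0.0301), the signalling adaptor Tifa one of -0.53 ± 0.13 (0.0365) and the peptidoglycan-binding protein Pglyrp1 one of -0.34 ± 0.08 (0.0214). They passed in 12, 7 and 17 of the 20 fits without 1 library, and none of them passed with the depth proxy as a covariate. Saa1 and Duox2 had differences of -1.45 ± 0.39 and -0.67 ± 0.18 (adjusted p = 0.0651 for each). In mice housed apart, Pglyrp1 and Pigr, the epithelial carrier of IgA, fell (-0.54 ± 0.11 and -0.54 ± 0.13, adjusted p = 0.0192 and 0.0492), in 16 and 2 of the 20 fits. With the depth proxy as a covariate both calls were lost, at -0.42 for Pglyrp1 and -0.35 for Pigr (adjusted p = 0.769 and 0.832). Of all tested genes, 0.158% fell in mice housed apart. Between co-housed Xiap-/- mice and those housed apart the median of the list was 0.57 and none passed.

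**Figure D5:**
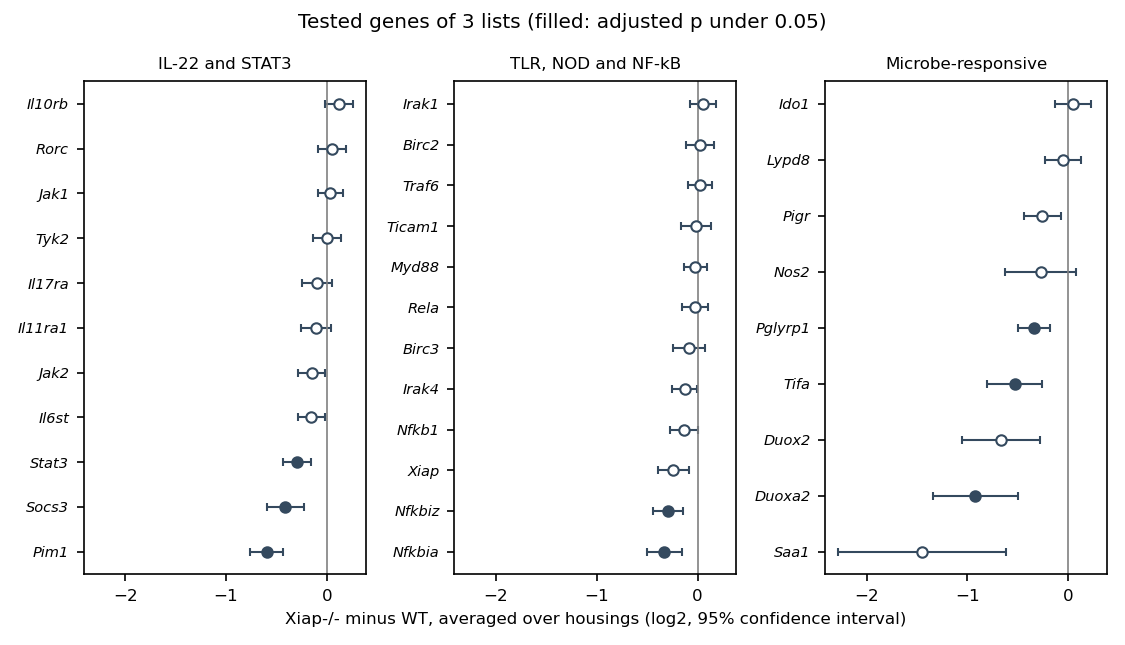
Xiap-/- minus WT differences in log2 level, averaged over both housings, for the tested genes of 3 lists, with 95% confidence intervals and filled symbols where the limma adjusted p was under 0.05. All 8 filled symbols lie below 0, with Duoxa2 (-0.92) and Pim1 (-0.60) farthest out among them.

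Reg4 is also a transcript of enteroendocrine cells. Of 14 enteroendocrine markers 10 were tested. Chgb, a granule protein, rose in Xiap-/- mice housed apart (0.47 ± 0.11, limma adjusted p = 0.0469, passing in 5 of the 20 fits without 1 library), and the proglucagon gene Gcg rose in the genotype average (0.31 ± 0.08, adjusted p = 0.0365, in 9 of 20). Neither passed with the depth proxy as a covariate (adjusted p = 0.796 for Chgb and 0.285 for Gcg). Of all tested genes, 0.294% rose in mice housed apart and 1.11% in the genotype average. The summed level of these markers was 10.21 to 10.55 in co-housed Xiap-/- and 10.06 to 10.46 in co-housed WT mice, and 10.42 to 10.96 in Xiap-/- and 10.12 to 10.63 in WT mice housed apart. Its part in the difference of Reg4 was not tested.

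Paneth cell markers, with all 10 listed genes tested, passed in no comparison, and their summed level was 15.51 to 15.85 in Xiap-/- and 15.26 to 15.69 in WT mice housed apart, and 15.18 to 15.88 in co-housed Xiap-/- and 15.13 to 15.79 in co-housed WT mice. None of 6 tested goblet cell markers (Muc2 was below the minimum), 5 stem cell markers or 9 T cell and innate lymphoid cell markers passed. Of 10 absorptive cell markers, the peptidase Anpep fell in the genotype average (-0.29 ± 0.08, limma adjusted p = 0.0497, in 6 of 20), and of 5 tested tuft cell markers Ltc4s fell in co-housed Xiap-/- mice against those housed apart (-0.52 ± 0.11, adjusted p = 0.0283, in 14 of 20). Both calls were lost with the depth proxy as a covariate (adjusted p = 0.263 for Anpep and 0.288 for Ltc4s). Of all tested genes, 0.945% fell in the genotype average and 0.147% passed in either direction for housing in Xiap-/- mice. Reg3b and Reg3g transcripts are known to vary along the intestine. The summed level of 4 ileal genes was 12.24 to 12.73 in Xiap-/- and 12.50 to 12.99 in WT mice housed apart, and 12.43 to 12.86 in co-housed Xiap-/- and 11.59 to 12.79 in co-housed WT mice. That of 4 proximal genes was 7.74 to 8.28 in Xiap-/- and 7.95 to 8.30 in WT mice housed apart, and 8.0 to 8.41 in co-housed Xiap-/- and 8.21 to 8.70 in co-housed WT mice. None of the 7 regional genes tested passed, and the part of position along the gut was not tested.

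Markers of B and plasma cells stood with the Reg pattern in WT mice housed apart. Their summed level was 5.91 to 6.20 in the Xiap-/- libraries housed apart, against 5.91 and 6.12 in WT replicates 5 and 6 and 6.82 to 7.17 in the other 4 WT libraries. Of the listed markers 3 were tested and none passed, and Cd79b and Mzb1 were among those below the minimum. In co-housed mice the sum was 6.05 to 7.0 in Xiap-/- and 5.91 to 7.12 in WT libraries. It was 5.91 to 6.19 in co-housed WT replicates 3 to 5, where Reg3g was at 12.97 to 13.23. In WT mice housed apart, replicates 5 and 6 were also lowest in the sum of microbe-responsive genes (13.23 and 13.47) and highest in that of absorptive markers (15.89 and 15.97). The depth proxy was 14.9% in WT housed apart replicate 5 and 4.58% in replicate 6, at both ends of that group. The part of any of these measures in the Reg levels was not tested.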

How the data were processed

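Bulk 3' sequencing libraries of polyadenylated RNA with unique molecular identifiers were made, per the labels' protocols, from small intestinal crypts. The extraction text names liver, and crypts are kept here as in the other labels. The authors deposited normalized log2 values between -3.88 and 16.30, and the submitters' processing notes name DESeq2 1.18.1 and genome build GRCm38.p6. The aligner and the transformation are not given in the sources used here. The values hold no counts, so depth is unknown and no counting interval is given, and if the transformation shrinks low values, differences of weakly expressed genes are understated.

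Genes with a mean of at least log2 of 10 were tested in limma 3.58.1 (R 4.3.3), with 1 model of the 4 group means, a variance trend, robust moderation, 16 residual degrees of freedom and Benjamini-Hochberg adjustment over all 9521 tested genes. Tests are two-sided, with a threshold of 0.05. The depth proxy counts genes with a mean below -3 that stand 0.015 above their own median. Marker sums are log2 of summed linear values. Exact permutation tests enumerate library splits. Alignments used Biopython 1.88 (match 1, mismatch -1, gap opening -3, extension -0.5) on the RefSeq promoter table and GENCODE M21 transcripts.

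The members and the 15 lists were chosen with earlier results of these data known. Genes named are the members, the other Reg genes, Xiap, the 5 most like each member, and list members that passed, up to 4 a list and comparison, or else the 2 with the highest mean, some of them not used here. Other genes were chosen after their values were seen. Simulated data with known shifts in some genes were used to test the model. Replicate numbers are shared by the groups. The median correlation of deviations was 0.01 over 27 same-numbered pairs of libraries, against -0.01 over 122 other pairs. The numbers were not taken as pairs.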

Additional observations from a re-analysis of the deposited data

Results flagged for a closer look

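Among the member values, 3 lay far from the rest of their group, by the gap to the nearest library over the range of the group, among 28 groups of values checked, of which chance marks about 1 in 20. In Xiap-/- mice housed apart, Reg3b was at 12.59 in replicate 3 while the other 3 libraries lay between 11.91 and 12.02, and Reg4 was at 8.75 in replicate 2 while the others lay between 8.37 and 8.41. In WT mice housed apart, the log2 level of Reg3b minus that of Reg3g was 0.93 in replicate 5, against a group median of 0.49. Reg3b in these Xiap-/- mice was below the WT mean in all 4 libraries, and Reg4 above it in all 4.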

How the results depend on the processing

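The members' 28 differences kept their direction and their side of the threshold in 507 fits without 1 library, lost a call in 42, gained one in 8 and changed sign in 3, and in the other settings these counts were 167, 10, 46 and 5. Depth is unknown, and the depth proxy differed between the genotypes housed apart. Differences are Xiap-/- minus WT or co-housed minus housed apart in log2 level, with limma adjusted p where one follows. The cause of a changed call was not tested in any setting.

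In mice housed apart, leaving out 1 library gave 0.91 to 1.24 for Reg3a, 0.60 to 0.79 for Reg4, -1.38 to -0.98 for Reg3b and -1.53 to -1.12 for Reg3g. For housing in Xiap-/- mice it gave -1.10 to -0.89 for Reg3a and -0.61 to -0.47 for Reg4, for the genotype average 0.54 to 0.70 for Reg3a and -1.12 to -0.91 for Reg3g, and for the housing average -0.62 to -0.46 for Reg3a. For housing in WT mice, Reg3a ranged over -0.24 to 0.080 and Reg4 over -0.15 to 0.0099, changing sign without WT housed apart replicate 5 (0.080 for Reg3a, 0.0055 for Reg4) or 6 (0.0099 for Reg4). The distance of Reg3a to Reg3g in co-housed mice ranged over 0.70 to 1.06, and the housing difference of this distance in WT mice turned to 0.27 without WT housed apart replicates 5 and 6.

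With no filter on low values, Reg3a no longer passed housed apart (1.04, adjusted p = 0.0815) or in the genotype average (0.60, 0.104). With only the compared groups fitted, Reg3a (1.04, 0.110) and Reg4 (0.69, 0.0983) no longer passed housed apart, while Reg3b (-0.75) and Reg3g (-0.70) passed in co-housed mice and all 4 did for housing in Xiap-/- mice (Reg3a -0.99, Reg3b 0.78, Reg3g 1.01, Reg4 -0.56). With the depth proxy as a covariate, housed apart Reg3a was at 0.79 (0.796) and Reg4 at 0.51 (0.769), and in the genotype average Reg3a was at 0.48 (0.256), Reg3b at -0.89 (0.126), Reg3g at -0.88 (0.178) and Reg4 at 0.36 (0.163), with no call left. Without variance trend and robust moderation, Reg3b (-1.17, 0.0114) and Reg3g (-1.33, 0.0102) passed housed apart and Reg3a (-0.99, 0.0242) for housing in Xiap-/- mice.

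With array weights, Reg3b (-1.28, 0.00594) and Reg3g (-1.46, 0.00550) passed housed apart, Reg3a (-0.94), Reg3b (0.85), Reg3g (1.09) and Reg4 (-0.60) for housing in Xiap-/- mice, and Reg3a (-0.52, 0.0378) and Reg3g (0.73, 0.0460) in the housing average. The exact permutation test, adjusted over the 4 comparisons of each gene alone, passed at the main values for Reg3b (-1.17) and Reg3g (-1.33) housed apart, for Reg3b (-0.75) and Reg3g (-0.70) co-housed and for all 4 by housing in Xiap-/- mice. By limma, 1506, 1144 and 1072 of all tested genes had an unadjusted p under 0.05 in these comparisons, in that order. Without WT housed apart replicates 5 and 6, chosen after the values were seen, Reg3b (-1.57, 1.54e-06) and Reg3g (-1.82, 5.86e-08) passed housed apart, Reg3b (-0.75) and Reg3g (-0.70) co-housed (0.0422 each), all 4 by housing in Xiap-/- mice (-0.99, 0.78, 1.01 and -0.56 for Reg3a, Reg3b, Reg3g and Reg4) and the interaction for Reg3a (-1.15), Reg3g (1.12) and Reg4 (-0.70). Housing in WT mice then changed sign (Reg3a 0.15, Reg3b -0.042, Reg3g -0.11, Reg4 0.14). In that fit 694 of all tested genes passed housed apart, 40 co-housed, 126 by housing in Xiap-/- mice and 33 in the interaction. With all libraries these counts were 43, 3, 14 and 1. Median-centring changed no call of the 4.

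Replicate numbers were not taken as pairs in the main model. Number 6 occurs in WT housed apart alone, so a block on the number also takes that library out of the differences. With the replicate number as a block, Reg3b (-1.45, 3.54e-05) and Reg3g (-1.65, 0.000251) passed housed apart, Reg3a (-1.13), Reg3b (0.86), Reg3g (1.12) and Reg4 (-0.62) for housing in Xiap-/- mice, Reg3a (-1.04, 0.0322) in the interaction and Reg3a (-0.61), Reg3b (0.50) and Reg3g (0.65) in the housing average, and Reg4 by housing in WT mice was at 0.0099. Same-numbered libraries had correlations of -0.42 to 0.36, with 10 of 27 over 0.1. Other pairs had correlations of -0.51 to 0.41, with 33 of 122 over 0.1. The genes passing housed apart, 43 in the main model, were 350 with the block, 385 with array weights, 65 without trend, 12 in the compared groups alone and 3 with the depth covariate. In the genotype average, 196 in the main model, they were 582, 791 and 6 with the block, the weights and the covariate. For housing in Xiap-/- mice, 14 in the main model, they were 189 with the block, 224 with weights, 23 without trend, 169 in the compared groups alone and 1 with the covariate. In the housing average, 17 in the main model, they were 98 with the block and 135 with weights. In the interaction, 1 in the main model, they were 10 with the block. In co-housed mice, 3 in the main model, they were 10 without the filter (of 23020 genes then tested), 142 in the compared groups alone and 159 with weights. Leaving out 1 library moved these counts, and the shares of all genes made from them, as much. Housed apart the count was 9 without Xiap-/- housed apart replicate 2 and 697 without WT housed apart replicate 5. In the genotype average it was 36 without co-housed Xiap-/- replicate 5 and 956 without WT housed apart replicate 5. By housing in Xiap-/- mice it was 2 without Xiap-/- housed apart replicate 3 and 64 without WT housed apart replicate 5. In co-housed mice it was 12 and in the housing average 226 without WT housed apart replicate 4, against 3 and 17 in the main model.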
